A study of Mus musculus with 4 samples.

Results

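The heat shock chaperones of the cytosol and the mitochondria were followed in mouse skeletal muscle as a list of 40 named genes. A gene was measured where the array held a probe set assigned to its symbol alone, which gave 38 of 40 members among 15103 genes tested. Hsp90ab1, the constitutive cytosolic Hsp90, and Hsf1, the heat shock transcription factor, were not analysed here. Each gene was read at its brightest probe set by the mean of all arrays, with the next brightest beside it. The 38 genes held 7 small Hsp genes, 8 Hsp40 genes, 8 genes of the Hsp70 and Hsp110 families with Bag3, 3 genes of the Hsp90 system, 8 subunits of the chaperonin TRiC and 4 mitochondrial chaperones.

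The muscle was the tibialis cranialis, which flexes the ankle, from 8 male C57Bl/6 mice that all received a high fat diet from 8 weeks of age and were 22 weeks old at collection. After 4 weeks of diet 1 leg was injected with AAV8 ProMyo, an adeno-associated virus that encodes the propeptide of myostatin, a binding partner that keeps this inhibitor of muscle growth inactive. The opposite leg of the same mouse received saline, and the muscles stayed in place for 10 weeks. RNA of animals 1-4 and of animals 5-8 was mixed in equal amounts, so that each group had 2 arrays, each of 4 animals, and no animal was measured alone. The promoter of the vector was not given in the sources used here, and since the control leg received no empty vector, the virus and the propeptide cannot be told apart.

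Chaperones bind proteins that are not fully folded and keep them from aggregating. Small Hsps hold such clients without ATP, Hsp40 proteins hand them to Hsp70, Hsp110 proteins recharge Hsp70 with ATP, Hsp90 finishes selected clients, and the ring-shaped TRiC folds actin and tubulin inside its cavity. Hspd1 and Hspe1 form the corresponding chamber of mitochondria. In muscle several of these proteins guard the sarcomere, where actin, desmin, filamin and myosin are under repeated mechanical load.

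On the log2 scale the array medians lay between 1.06 and 1.11. The upper quartile was 2.97 in saline 5-8 against 3.15 to 3.20 on the other arrays, and the mean of the 18 hybridization controls was 11.15 there against 10.12 to 10.17. The highest background control, a probe set for a bacterial gene, reached 0.99. The 9 fibre markers (Ckm, Acta1 and Myh4 among them) were all far above that level. Their summed log2 levels were 14.97 and 14.91 in ProMyo and 14.85 and 14.77 in saline muscle. Of these 9, 8 were higher in both pools and 1, Mb, was lower in both (-0.17 and -0.13), with a median difference of 0.14. Summed levels of 6 macrophage markers were 7.30 and 7.14 in ProMyo against 7.74 and 7.47 in saline muscle, with 4 of them lower in both pools. Those of 6 fibroblast markers were 9.67 and 9.62 against 9.87 and 10.05. Of these 6, 4 were lower in both pools and 1, Lum, was higher in both (0.24 and 1.025). Sums of 4 tendon markers were 9.45 and 9.33 against 9.87 and 9.95, with 3 of them lower in both pools. Those of 2 Schwann cell markers were 3.12 and 2.74 against 3.41 and 3.56. Of these 2, Mbp was lower in both pools (-0.51 and -1.02), and Sox10 differed in sign (0.44 and -0.34). The sums of 5 endothelial markers went the other way, 5.58 and 5.50 against 5.48 and 5.28, with 3 of the 5 higher in both pools. No macrophage, fibroblast, tendon, Schwann cell or endothelial marker lay within the background controls on all arrays. Of the 9 slow fibre markers 1, Tnni1, did, and their sums were 8.80 and 8.70 against 9.07 and 8.76. The log2 difference between 3' and 5' control probe sets of Gapdh, a sign of RNA integrity and amplification, was 0.58 and 0.74 in ProMyo and 0.90 and 0.81 in saline muscle. The part of these differences in the chaperone values was not tested.

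Between the legs the chaperones differed by small amounts, and no member passed the test by itself. Of the 38 members 17 were higher in ProMyo muscle within both pools of animals (44.7%), where 29.0% of all genes tested were, and 5 were lower within both (13.2%, against 24.0% of all genes). The other 16 differed in sign between the pools. The median difference was 0.11 log2 units for the members and 0.01 for all genes. In whole muscle, fewer cells of a type and less RNA per cell cannot be told apart.

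Among all 15103 genes, 0 had an adjusted p under 0.05 (limma with Benjamini-Hochberg adjustment, 0.0% called), and the smallest adjusted p of a member was 0.82. At an unadjusted p under 0.05 limma held 2 members, Cct8 and Hspa1a, or 5.26%, against 5.79% of all genes. No member was at least 1.5-fold apart in the same direction within both pools, as 1.03% of all genes were upward and 0.563% downward. In 16 members both ProMyo arrays lay outside the range of both saline arrays, 12 of them above and 4 below, which is 31.6% and 10.5% against 17.8% and 15.7% of all genes. At least 0.1 in both pools was reached upward by 9 members, where 17.8% of all genes did, and downward by 4, where 14.1% did.

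Most members had a high signal, and the share of genes higher in both pools grew with the signal. It was 22.0% for genes with a mean log2 value from 0.45 to 2, 35.1% from 4 to 6, 38.7% from 6 to 8 and 43.5% above 8. Among the 5393 genes with a mean of at least 4, a background chosen after seeing the data, 37.4% were higher and 20.0% lower in both pools, and the groups did not overlap in 24.0% upward and 11.9% downward. Of the 35 members in that range 17 were higher (48.6%) and 3 lower (8.57%), with 12 (34.3%) and 2 (5.71%) whose groups did not overlap. The part of the signal level in the members' counts was not tested. With quantile normalization, which gives the arrays 1 distribution, 13 members were higher and 8 lower in both pools. These are 34.2% and 21.1%, against 25.1% and 29.7% of all genes, and the members' median was 0.05. The groups then did not overlap in 14 members, or 36.8% against 37.1% of all genes. On the deposited values those shares were 42.1% and 33.5%. Without the saline 5-8 array the median of the members was 0.03, and without the saline 1-4 array it was 0.16. The median of all genes moved too, to -0.02 and 0.06, and it was -0.02 with quantile normalization.

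**Figure D1:**
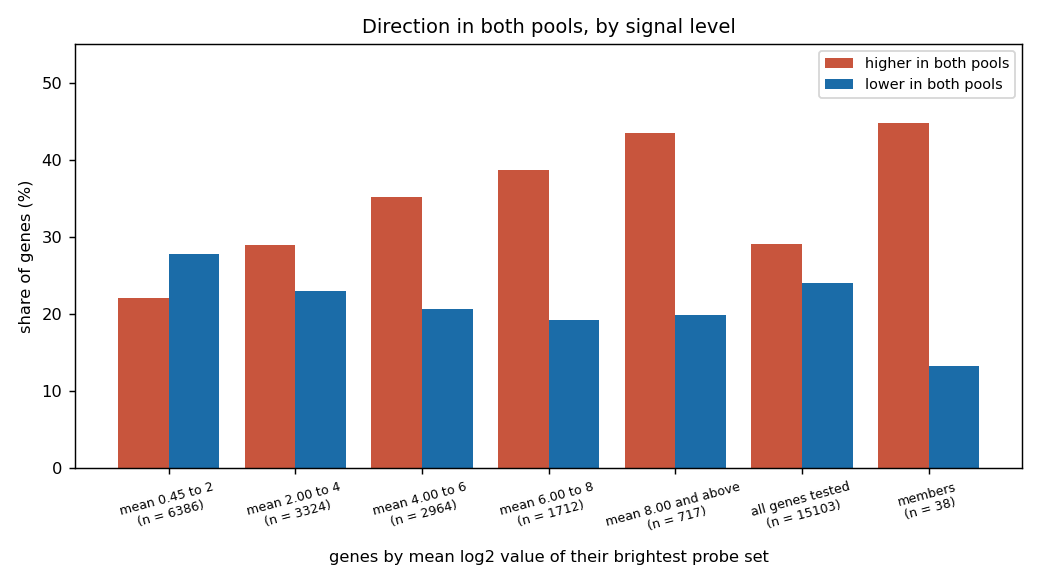
Share of genes (%) that were higher (red) or lower (blue) in ProMyo muscle within both pools of animals, by the mean log2 value of the gene's brightest probe set, for all genes tested and for the 38 chaperones ("members"). The red bars grow from 22.0% in the dimmest to 43.5% in the brightest class of genes, and the chaperones stand at 44.7%.

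**Figure D2:**
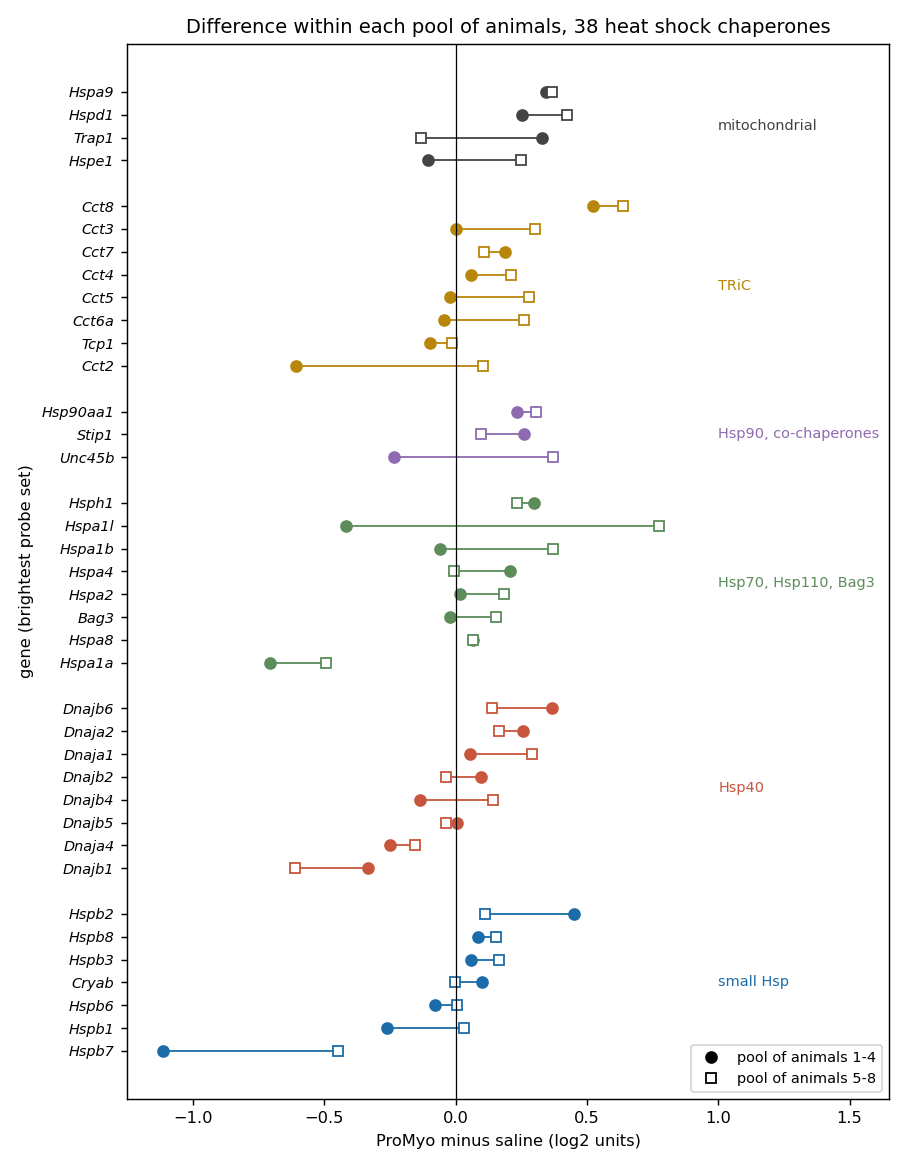
ProMyo minus saline (log2 units) within the pool of animals 1-4 (filled circles) and 5-8 (open squares) for each chaperone gene at its brightest probe set, grouped by family. Cct8, Hspa9, Hspd1, Hsph1 and Hsp90aa1 lie right of 0 in both pools, and Hspb7, Hspa1a, Dnajb1 and Dnaja4 lie left of 0 in both.

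The small Hsps held the lowest difference of all members, that of Hspb7. Hspb7, a muscle-restricted small Hsp that binds the actin crosslinker filamin C, read 5.58 and 5.35 in ProMyo pools 1-4 and 5-8 and 6.69 and 5.79 in the saline pools. Both ProMyo values lay below both saline values, but the saline pools themselves were far apart, with pool 1-4 the higher one. ProMyo minus saline came to -0.78 ± 0.33 (log2 units ± SE; each group has 2 pools), so saline muscle had 1.72-fold more signal, with -1.11 in pool 1-4 and -0.45 in pool 5-8 (limma, adjusted p = 0.82). The other probe sets of Hspb7 averaged -0.25 and -0.53 in the same direction, although the first of them was opposite in pool 5-8, at 0.33. Without the saline 1-4 array the difference was -0.33, and without the saline 5-8 array it was -1.23. Of the 9 slow fibre markers 4 were lower and 2 higher in both pools, with a median difference of -0.16. The lowest of them, Myl2, which encodes a myosin light chain, read 3.43 and 1.95 in ProMyo and 5.23 and 3.84 in saline muscle. The part of slow fibres in the Hspb7 values was not tested.

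Hspb2, which pairs with Hspb3 in muscle, read 5.86 and 5.41 in the ProMyo pools and 5.41 and 5.30 in the saline pools. The groups barely separated, and the difference was 0.28 ± 0.21, which was 0.06 without the ProMyo 1-4 array. Hspb3, its partner subunit, read 5.47 and 5.21 in ProMyo and 5.41 and 5.04 in saline muscle. These overlap, and pool 1-4 was the higher pool in both legs, with a difference of 0.11 ± 0.21. Hspb8, which works with Bag3 in the removal of damaged filamin, read 8.57 and 8.47 in ProMyo and 8.48 and 8.31 in saline muscle. Its groups also overlapped (0.12 ± 0.16), and its next probe set averaged 0.16. Bag3 itself, which couples Hsp70 and Hspb8 to autophagy, stood at 0.07 ± 0.17 with -0.02 in pool 1-4 and 0.15 in pool 5-8.

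Hspb1 (Hsp27), a small Hsp that is phosphorylated under stress, read 6.54 and 6.39 in ProMyo and 6.80 and 6.36 in saline muscle. The ProMyo values lay inside the saline range, and the difference of -0.12 ± 0.21 came with opposite signs in the pools, -0.26 and 0.03. Cryab, alpha-B-crystallin, which protects desmin, read 10.35 and 10.42 in ProMyo and 10.24 and 10.43 in saline muscle. Here too the groups overlapped, with 0.05 ± 0.16 at the brightest probe set and -0.07 at the next. Hspb6 (Hsp20) differed by -0.04 ± 0.15, with -0.08 in pool 1-4 and 0.01 in pool 5-8. The median of the 7 small Hsps was 0.05. In both pools 3 were higher and 1 lower (42.9% and 14.3%, against 29.0% and 24.0% of all genes).

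Among the Hsp40 genes, whose J domain stimulates the ATPase of Hsp70, differences in both directions stood side by side. Dnajb1, the stress-inducible partner of Hsp70, read 3.52 and 3.13 in ProMyo and 3.85 and 3.74 in saline muscle. The ProMyo arrays were both below the saline arrays, and the difference was -0.47 ± 0.20, or 1.39-fold more signal in saline muscle (limma, adjusted p = 0.82). Its other probe set had a mean of 0.52 and lay within the background controls. Without the ProMyo 5-8 array the difference of Dnajb1 was -0.27.

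Dnaja4, a membrane-anchored Hsp40 that is abundant in heart and skeletal muscle, read 6.63 and 6.79 in ProMyo and 6.88 and 6.94 in saline muscle. Both ProMyo arrays were again the lower ones, with -0.25 in pool 1-4 and -0.16 in pool 5-8 and a difference of -0.20 ± 0.16. The next probe set of Dnaja4 showed a larger difference in the same direction, -0.37 and -0.44 within the pools. A further, dim probe set averaged 0.07 with opposite signs in the pools. Without the ProMyo 1-4 array the difference at the brightest probe set was -0.12.

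Dnaja2 and Dnajb6 went the other way. Dnaja2, a constitutive Hsp40 that helps Hsp70 refold clients, read 8.11 and 8.12 in ProMyo and 7.85 and 7.95 in saline muscle. The groups did not overlap, the difference was 0.21 ± 0.16, and the next probe set averaged 0.14 with the same sign in both pools. Dnajb6, the Hsp40 that is mutated in a dominant limb-girdle muscular dystrophy, read 7.81 and 7.64 in ProMyo and 7.44 and 7.504 in saline muscle. That probe set separated the groups by 0.25 ± 0.16, but the next one read -0.14 and -0.07 in the pools, and 2 dimmer ones averaged 0.08 and 0.06, so the direction of Dnajb6 depends on the probe set. Dnaja1 was higher in both pools (0.17 ± 0.19) with overlapping groups. Dnajb2, Dnajb4 and Dnajb5 differed by 0.03, 0.003 and -0.02, each with opposite signs in the pools. The median of the 8 Hsp40 genes was 0.02, with 3 higher and 2 lower in both pools, where 29.0% and 24.0% of all genes were.

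In the Hsp70 group the differences were small and of both signs. Hspa8 (Hsc70), the main Hsp70 of unstressed cells, read 10.33 and 10.30 in ProMyo and 10.26 and 10.24 in saline muscle. All 4 values were close together, yet both ProMyo arrays were above both saline arrays, and the difference was 0.07 ± 0.15. The next 2 probe sets of Hspa8 averaged 0.20 and 0.19, with the same sign in both pools. The name of the brightest Hspa8 probe set ends in _x_at, Affymetrix's mark for probes that can also match other transcripts. The brightest probe sets of Cct2 and Cct4, given below, carry the same mark. With quantile normalization the brightest Hspa8 probe set read 0.01.

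Hsph1 (Hsp105), an Hsp110 protein that exchanges the nucleotide of Hsp70, read 9.76 and 9.74 in ProMyo and 9.47 and 9.51 in saline muscle. The pools of each group were close together, and the groups were 0.27 ± 0.15 apart, 1.20-fold (limma, adjusted p = 0.84). Its second probe set read 0.19 and 0.49 in the pools. Hspa2, an Hsp70 best known from the testis, read 5.96 and 6.01 in ProMyo and 5.94 and 5.82 in saline muscle. The groups were narrowly apart, with a difference of 0.10 ± 0.16. Hspa4, another Hsp110 protein, stood at 0.10 ± 0.16 with no clear sign in pool 5-8, and its next 2 probe sets averaged -0.15 and -0.36.

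The inducible Hsp70 genes are a pair of near-identical copies. The 120 bases before the start of each copy are shown because they differ at a single position of the stretch, 119 of 120 bases being equal (RefSeq, GRCm38.p6). Capitals mark GAANNTTC, found in 34.8% of the members' promoter windows and 7.86% of all windows, a pair of the inverted units to which heat shock factors bind, where N is any base. Hspa1a lies at chr17:34972157-34972276 and Hspa1b at chr17:34959239-34959358, both on the minus strand.
Hspa1a: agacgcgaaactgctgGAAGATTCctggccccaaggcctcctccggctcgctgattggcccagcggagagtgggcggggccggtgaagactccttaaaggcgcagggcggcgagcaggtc
Hspa1b: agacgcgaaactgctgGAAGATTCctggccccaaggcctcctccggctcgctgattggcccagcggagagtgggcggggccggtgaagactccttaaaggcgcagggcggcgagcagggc

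Signals from copies this similar can be shared between probe sets, so the assignment to one or the other gene is uncertain. The Hspa1b probe set, the only one of the pair above the background controls on all arrays, read 4.83 and 5.35 in ProMyo and 4.89 and 4.98 in saline muscle. The ProMyo 5-8 array was the highest and the ProMyo 1-4 array the lowest, and the difference of 0.16 ± 0.22 was -0.11 without ProMyo 5-8. The Hspa1a probe set read 0.20 and 0.36 in ProMyo and 0.91 and 0.86 in saline muscle. Both ProMyo values were the lower ones, at -0.60 ± 0.16 (limma, adjusted p = 0.82), but all 4 lay within the range of the background controls, so the size of the difference is uncertain. Hspa1l, which neighbours them in the genome, read -0.42 in pool 1-4 and 0.77 in pool 5-8. The Hsp70 group with Bag3 had a median of 0.10. In both pools 3 members were higher and 1 lower (37.5% and 12.5%, against 29.0% and 24.0% of all genes).

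Of the Hsp90 system, Hsp90aa1, the stress-inducible cytosolic Hsp90, read 7.33 and 7.57 in ProMyo and 7.10 and 7.26 in saline muscle. In each leg pool 5-8 was the higher one, and the groups did not overlap. The difference was 0.27 ± 0.18 with 0.23 and 0.31 in the pools, and it was 0.15 without the ProMyo 5-8 array. The other probe sets of Hsp90aa1 above the background controls did not share 1 value, with means of 0.02, 0.70 and -0.40. Stip1 (Hop), which passes clients from Hsp70 to Hsp90, read 4.85 and 4.81 in ProMyo and 4.59 and 4.72 in saline muscle. Both ProMyo arrays were above both saline arrays, by 0.18 ± 0.16.

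Unc45b, the muscle chaperone that folds the myosin motor together with Hsp90, read 7.78 and 7.90 in ProMyo and 8.01 and 7.53 in saline muscle. The saline arrays enclosed the ProMyo arrays, and the difference of 0.07 ± 0.22 was -0.23 in pool 1-4 and 0.37 in pool 5-8. Leaving out the saline 1-4 array gave 0.31 and leaving out the saline 5-8 array gave -0.17. The median of the 3 genes was 0.18.

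**Figure D3:**
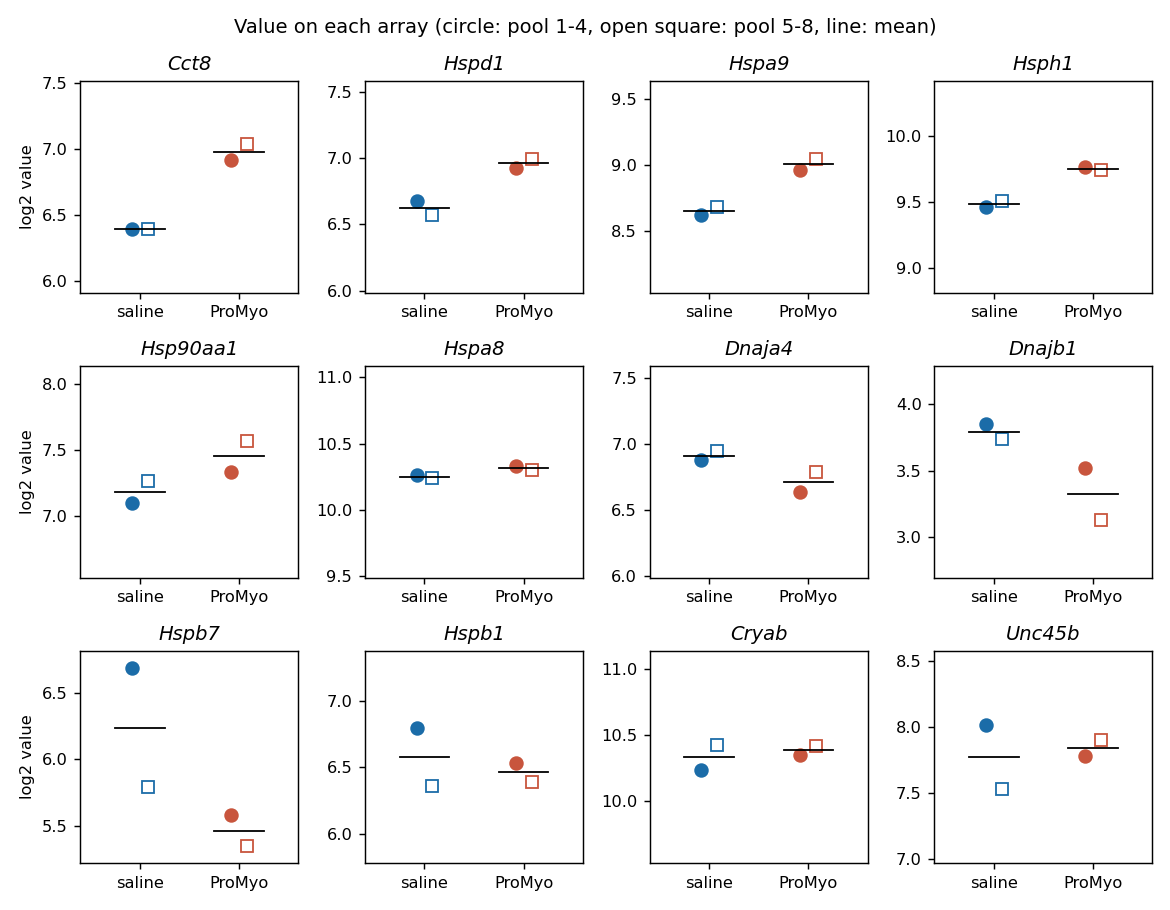
Log2 value on each array for 12 chaperone genes in saline (blue) and ProMyo (red) muscle, with pool 1-4 as filled circles, pool 5-8 as open squares and a line at the group mean; every panel spans 1.6 log2 units, with its own offset. Cct8 and Hsph1 show tight groups that do not overlap, whereas the saline pools of Hspb7, Hspb1 and Unc45b lie far apart.

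TRiC is built from 8 different subunits, Tcp1 and Cct2 to Cct8, that assemble into rings in fixed order, and all 8 were measured. Cct8, the theta subunit, had the highest difference of all members. It read 6.92 and 7.03 in ProMyo and 6.39 and 6.40 in saline muscle. The saline pools were nearly equal and both ProMyo pools stood clearly above them. The difference was 0.58 ± 0.16, or 1.496-fold, with 0.52 in pool 1-4 and 0.64 in pool 5-8 (limma, adjusted p = 0.82), and it stayed between 0.52 and 0.64 when any single array was left out. The second probe set of Cct8 had a mean of 0.20, below the filter and within the background controls, so a single probe set carries this value.

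The partner subunits of Cct8 did not show a difference of that size. Cct7 read 7.31 and 6.98 in ProMyo and 7.12 and 6.87 in saline muscle. Pool 1-4 was the higher pool in both legs, so the groups overlapped despite differences of 0.19 and 0.11 within the pools. Cct4 read 7.80 and 7.88 in ProMyo and 7.74 and 7.67 in saline muscle, a difference of 0.13 ± 0.16 without overlap, and its next probe set averaged 0.12. Cct3 read 6.61 and 6.47 in ProMyo and 6.61 and 6.16 in saline muscle. Its difference of 0.15 ± 0.21 came from pool 5-8, and it was -0.07 without the saline 5-8 array. The next probe set of Cct3, nearly as bright, read 0.51 in pool 1-4 and 0.08 in pool 5-8.

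Cct5 and Cct6a, the epsilon and zeta subunits, differed by 0.13 and 0.11 with opposite signs in the pools, and Tcp1, the alpha subunit, by -0.05. Cct2, the beta subunit, stood lowest at -0.25 ± 0.22, with -0.61 in pool 1-4 and 0.10 in pool 5-8. Its next probe set read -0.09 and -0.18. The TRiC median was 0.13, and it was -0.008 without the saline 5-8 array. In both pools 4 of the 8 subunits were higher and 1 lower, where 29.0% and 24.0% of all genes were. Among genes with a mean of at least 4 these shares were 37.4% and 20.0%.

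The mitochondrial chaperones had a median of 0.22 over 4 genes, the highest of the groups on the brightest probe sets. It was 0.16 without the saline 5-8 array, where the Hsp90 group stood at 0.24, and 0.13 on the next probe set, where TRiC stood at 0.12. Hspa9 (mortalin), the Hsp70 that pulls precursor proteins through the inner membrane, read 8.96 and 9.05 in ProMyo and 8.62 and 8.68 in saline muscle. The groups did not overlap and the pools differed by similar amounts, 0.34 and 0.37. The difference was 0.36 ± 0.16, or 1.28-fold (limma, adjusted p = 0.83). The next probe set, which was nearly as bright, averaged 0.16 with 0.09 and 0.22 in the pools, so the sign was shared and the size was not.

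Hspd1 (Hsp60), the barrel of the mitochondrial folding chamber, read 6.93 and 7.00 in ProMyo and 6.68 and 6.57 in saline muscle. Both ProMyo arrays were above both saline arrays, by 0.34 ± 0.16 or 1.26-fold (limma, adjusted p = 0.83), and leaving out any single array gave values from 0.29 to 0.39. Hspe1 (Hsp10), the lid of the same chamber, read 7.89 and 7.81 in ProMyo and 7.99 and 7.56 in saline muscle. Those groups overlapped, with -0.11 in pool 1-4 and 0.25 in pool 5-8, and the mean difference was 0.07 ± 0.21. The next probe set of Hspe1 had the opposite sign in each pool, 0.27 in pool 1-4 and -0.01 in pool 5-8, and averaged 0.13. The difference between both genes was not tested. Trap1, the mitochondrial Hsp90, differed by 0.10 ± 0.24 with opposite signs in the pools, and its next probe set averaged -0.29.

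Hspd1 and Hspe1 are transcribed away from each other out of a shared stretch of DNA. The 215 bases between the start of Hspe1 and the nearer of the 2 listed starts of Hspd1 are shown because they precede both genes, of which only Hspd1 was higher in both pools (RefSeq, GRCm38.p6, chr1:55087933-55088147, plus strand, reading towards Hspe1). Capitals mark overlapping matches to GAANNTTCNNGAA and its reverse complement TTCNNGAANNTTC, the 3-unit form of the heat shock element.
Hspe1 and Hspd1: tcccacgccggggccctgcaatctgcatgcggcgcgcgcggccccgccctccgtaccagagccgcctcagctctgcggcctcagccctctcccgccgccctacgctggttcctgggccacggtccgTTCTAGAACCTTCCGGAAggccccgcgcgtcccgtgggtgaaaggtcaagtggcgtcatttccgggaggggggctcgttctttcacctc

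The same search was run on both strands of the windows from 250 bases before to 50 after each RefSeq start. Windows were found for 32 of the 40 members, and 4 of these genes (12.5%) held a 3-unit match, against 0.662% of the 27025 genes with a window. These were Hspd1, Hspe1, Dnajb6 and Hsph1, whose differences were 0.34, 0.07, 0.25 and 0.27. The Hsph1 match lay just after its 2 listed starts. The 150 bases before the first start of Dnajb6 and the corresponding stretches of Cct8 and Hspb7, the members with the highest and the lowest difference, are shown with 3-unit matches in capitals.
Dnajb6, chr5:29735748-29735897, plus strand: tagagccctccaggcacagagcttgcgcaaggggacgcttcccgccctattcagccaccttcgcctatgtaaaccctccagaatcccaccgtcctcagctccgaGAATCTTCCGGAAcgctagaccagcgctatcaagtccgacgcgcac
Cct8, chr16:87495870-87496019, minus strand: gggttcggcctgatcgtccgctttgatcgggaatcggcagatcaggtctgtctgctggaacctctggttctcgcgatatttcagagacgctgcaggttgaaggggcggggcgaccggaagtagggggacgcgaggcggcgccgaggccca
Hspb7, chr4:141420629-141420778, plus strand: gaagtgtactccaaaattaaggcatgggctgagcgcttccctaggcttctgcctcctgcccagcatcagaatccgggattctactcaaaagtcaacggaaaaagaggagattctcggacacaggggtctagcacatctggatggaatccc

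Neither of the last 2 stretches held the motif, which says only that these letters are not in those bases. A match is a description of the sequence and was not measured as a binding site.

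How firmly a chaperone was measured depended on its probe sets. The 38 members had 96 probe sets, 78 of them above the background controls on all arrays, and 13 members had a single one. In 24 members the next brightest probe set passed the filter. In 19 of them its difference had the sign of the brightest one, and in Cryab, Dnajb6, Hspa1b, Hspa4 and Trap1 it had the opposite sign. A stricter count took the 22 members with at least 2 probe sets above the background controls on all arrays. In 14 of these 22 all such probe sets had 1 sign. On the next probe sets 9 of 24 members were higher in both pools and 7 lower, with a median of 0.07. These are 37.5% and 29.2%, against 27.6% and 23.5% of all genes with a next probe set. The small share of lower members on the brightest probe sets (13.2% against 24.0%) was not seen on the next ones. With 7 of 24 members, the share there was close to that of all genes. Hsph1, Hspa9, Hspa8 and Dnaja2 are examples of members higher in both pools at the brightest and at the next probe set, and Dnaja4 was lower in both pools at both.

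**Figure D4:**
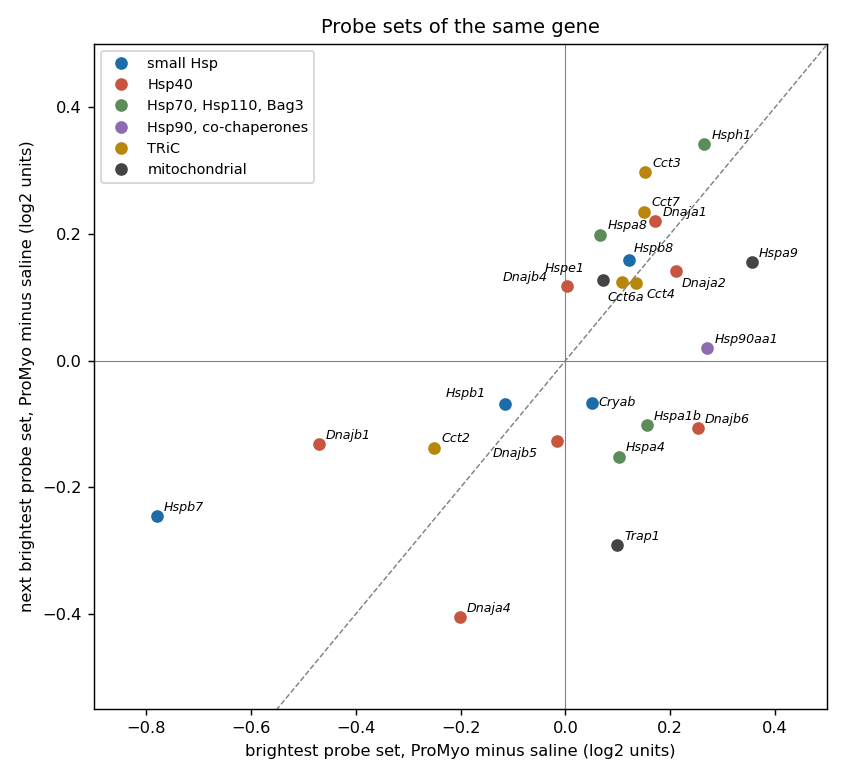
ProMyo minus saline (log2 units) at the brightest (x axis) and the next brightest probe set (y axis) of the 24 chaperone genes with a next probe set above the filter, coloured by family; the dashed line marks equal values. Hsph1 and Hspa9 lie above 0 on both axes, Hspb7, Dnajb1 and Dnaja4 below 0 on both, and Dnajb6 and Trap1 to the right of 0 but below the horizontal line.

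The other genes of the chaperone network were read from lists of co-chaperones. Of 63 measured genes in 5 lists, 22 were higher and 13 lower in both pools, or 34.9% and 20.6%, with a median of 0.03. Among all genes tested 29.0% were higher and 24.0% lower, and among those with a mean of at least 4, 37.4% and 20.0%. None passed the adjusted threshold in limma (smallest adjusted p = 0.82), and 3 had an unadjusted p under 0.05, or 4.76% against 5.79% of all genes. For Hsp70, 6 of 20 co-chaperones were higher and 5 lower in both pools. Bag4 differed by 0.72 ± 0.20 and Bag5 by -0.43 ± 0.18, both Bag domain proteins that release nucleotide from Hsp70, and Hspa14, an Hsp70 of the ribosome, by 0.37 ± 0.15. The next probe set of Bag4 read -0.18 at a dim level, and that of Bag5 read -0.01.

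Of 15 measured Hsp90 co-chaperones 5 were higher and 3 lower in both pools (33.3% and 20.0%, against 29.0% and 24.0% of all genes). Cdc37, which brings kinases to Hsp90, stood at 0.52 ± 0.22, Itgb1bp2 (melusin), a muscle-specific Hsp90 partner, at 0.40 ± 0.19, and Fkbp8 at -0.33 ± 0.22. Among the 9 prefoldin and other TRiC co-chaperone genes 2 were higher and 1 lower in both pools (22.2% and 11.1%). Their smallest unadjusted p belonged to Pfdn2, a prefoldin subunit, at 0.45 ± 0.22 with 0.15 in pool 1-4 and 0.74 in pool 5-8, while Pfdn6 and Pfdn1 stood at -0.19 and 0.17.

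The mitochondrial co-chaperones and proteases were higher in both pools for 7 of 13 genes and lower for 1. These are 53.8% and 7.69%, against 29.0% and 24.0% of all genes. Clpb, a disaggregase of the intermembrane space, differed by 0.35 ± 0.18, Clpx, the unfoldase of a matrix protease, by 0.56 ± 0.32, and Grpel2, a nucleotide exchange factor of mortalin, by -0.25 ± 0.16. The difference of Clpx was 0.03 in pool 1-4 and 1.101 in pool 5-8, where the saline array read 3.43 against 4.31 to 4.53 on the others. The second probe sets of Clpb, Clpx and Grpel2 each had the opposite sign, at -0.10, -0.07 and 0.29. Of 6 genes in the list of heat shock factors and regulators, 2 were higher and 3 lower in both pools. The shares of all genes were again 29.0% and 24.0%. Zfand2a, a heat shock factor target, read 3.98 on both ProMyo arrays and 4.39 and 4.36 on the saline arrays, a difference of -0.40 ± 0.15. Its next probe set averaged 0.06. Cryaa, the lens crystallin, stood near the background controls at 0.53 ± 0.20, and Ier5, a regulator of Hsf1, at 0.22 ± 0.24.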

How the data were processed

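Total RNA (Tri-reagent) was amplified with Nugen Ovation V2 and biotinylated with the Encore kit, per the labels' protocols. The authors deposited 1 value per probe set on what was read as a log2 scale; the submitters' processing notes name RMA and Affymetrix Expression Console. Tool versions and the log base were not stated, and values below 0 are unusual for RMA, so fold values hold on the deposited scale. Of 45101 probe sets 34945 had 1 gene symbol in the platform annotation, array controls aside. Genes were represented by their brightest probe set, and genes whose mean fell under 0.45, the 25th percentile of all probe sets, were dropped. ProMyo was compared with saline over all 15103 genes in limma 3.58.1 (R 4.3.3; lmFit, eBayes without trend, Benjamini-Hochberg adjustment, threshold 0.05), with 2 residual and 3.17 prior degrees of freedom; the code was tested on simulated data. The number of arrays, 2 per group, limits the precision, with a median SE of 0.19; an exact permutation test of 2 against 2 cannot go below a two-sided p of 0.33. Both muscles of a mouse are in same-numbered pools, so the pools are paired by design; their deviations from the group means correlated with r = 0.16 across genes.

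Values in every array are given for fixed members and for up to 4 per family with the largest difference of 1 sign in both pools; outside the member list, the 3 genes with the smallest p in each list are named. Hspe1 was added to these after its values were seen, as the partner of Hspd1. Members and lists were chosen with earlier results of these data known. Background controls are 27 Bacillus probe sets. Alternatives were the pools as a block, other filters, eBayes with trend, median centring, quantile normalization, other probe sets, and leaving out each array. The genes with a mean of at least 4 were chosen as a second background after seeing the data. Promoter sequences are those of RefSeq, GRCm38.p6; 8 members had no entry.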

Additional observations from a re-analysis of the deposited data

How the results depend on the processing

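Each setting was changed alone. With the paired pools as a replicate block limma called 0 genes (smallest adjusted p = 0.68). The same held under every other alternative that kept 2 arrays per group and the adjusted threshold. At an unadjusted p under 0.05 limma held 874 of 15103 genes (5.79%) and 2 of 38 members (5.26%). With the block these were 1039 of 15103 genes and 4 of 38 members, and with trend 908 of 15103 genes and 6 of 38 members. Members higher in both pools numbered 9 where at least 0.1 was required in both and 9 of 24 on the next probe set. Members lower in both pools numbered 8 with quantile normalization and 6 to 12 with single arrays left out, where both differences share 1 array and the lone array is assumed to vary like the other group. Those 15.8% to 31.6% of members stand beside 27.3% to 36.9% of all genes. Members whose groups did not overlap then numbered 23 to 29, or 60.5% to 76.3% against 62.5% to 72.4% of all genes, and genes at an unadjusted p under 0.05 numbered from 353 to 1599. Among the 37 members above the background controls, 17 were higher and 4 lower.

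The medians of the 6 families depended on the setting. That of TRiC was 0.0652 with quantile normalization and -0.00812 without saline 5-8, and that of the Hsp70 group 0.0468, 0.0491 without saline 5-8 and 0.0484 on the next probe set. With quantile normalization the others were -0.0490 for Hsp40, 0.106 for Hsp90, 0.157 for mitochondrial and -0.00248 for small Hsp genes. On the next probe set they were -0.107, 0.0195, 0.128 and -0.0677, and with the mean of all probe sets 0.0899 for Hsp90, 0.148 for mitochondrial and -0.0367 for small Hsp genes. Leaving out single arrays gave ranges of -0.0138 to 0.0753, 0.153 to 0.240, 0.159 to 0.310 and -0.0385 to 0.105 in the same order.

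Differences of single genes were followed across the settings only for the 24 members picked by the naming rule. Of these, Cryab turned sign (-0.11 with the mean of its probe sets, -0.0663 on the next one, -0.00248 with quantile normalization). So did Hspa1b (-0.10 with the mean and on the next one), Dnajb6 (-0.11 on the next one) and Unc45b (-0.00004 with quantile normalization). Outside these 24, Hspa4 and Trap1 had the opposite sign on the next probe set (-0.15 and -0.29). With single arrays left out, the ranges were -0.0407 to 0.140 for Cryab, -0.11 to 0.42 for Hspa1b, -0.34 to 0.11 for Hspb1, -0.0708 to 0.296 for Hspb3, -0.17 to 0.31 for Unc45b, -0.0733 to 0.376 for Cct3 and -0.0187 to 0.318 for Cct7. The cause was not tested.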

Other observations

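The chaperones of the endoplasmic reticulum, which fold secreted and membrane proteins, were read as a list for comparison with the cytosolic and mitochondrial ones. Of the 15 genes 8 were higher and 1 lower in both pools (53.3% and 6.67%), with a median of 0.09. For the heat shock chaperones these were 17 and 5 of 38 (44.7% and 13.2%), with a median of 0.11. Among all genes 29.0% were higher and 24.0% lower. Hspa5 (BiP), the Hsp70 of this compartment, read 7.75 and 7.86 in ProMyo and 7.22 and 7.03 in saline muscle. Its difference of 0.68 ± 0.17 (limma, adjusted p = 0.82) was above that of every member, and its next probe set read 0.62. Hsp90b1 (Grp94), the Hsp90 of the same compartment, stood at 0.38 ± 0.17 with -0.06 at its next probe set, and Manf at 0.52 ± 0.20. The difference between the lists was not tested.

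Immediate early genes, which respond within minutes to injury and handling, were read for the same arrays. Of the 6 measured, Dusp1, Egr1 and Fos were higher in pool 1-4 than in pool 5-8 in both legs, Atf3 was lower, and Jun and Ier2 differed in order between the legs. Egr1 read 7.94 and 7.45 in the ProMyo and saline muscle of animals 1-4 and 6.37 and 5.89 in those of animals 5-8. The summed level of 6 such genes was 9.92 and 10.01 in pool 1-4 and 9.34 and 9.24 in pool 5-8.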
